A study of Mus musculus with 3 samples.

Results

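Among the miRNAs that serum carries from the tissues, 10 that are abundant in liver or gut were compared within and across 3 arrays, out of 1881 mouse miRNAs on the array. They were mmu-miR-122-5p and its opposite arm mmu-miR-122-3p, the group of mmu-miR-192-5p, mmu-miR-194-5p and mmu-miR-215-5p, and the liver-abundant mmu-miR-148a-3p, mmu-miR-22-3p, mmu-miR-193a-3p, mmu-miR-365-3p and mmu-miR-455-3p. The prefix mmu, for mouse, is left out below. The rule that names them is based on the tissues known to make them. The serum came from male C57BL/6NJcl mice aged 8 weeks, with no treatment named, and the labels do not say how many animals were bled or whether the extractions shared one pool of serum. RNA was taken from 200 µL of serum in each of 3 ways, with 1 array for each. For the exoRNeasy midi kit, 700 µL of QIAzol was added to the serum and the aqueous layer was loaded, so this array measured total serum RNA and not RNA of vesicles alone. The other extracts were made with the miRNeasy serum/plasma advanced and mirVana PARIS kits. From each extract 1.8 ng of RNA was labelled with Cy3. The question was how far the measured signal of liver and gut miRNAs differed between the 3 extracts. With 1 extract and 1 array for each kit, effects of kit, extraction, array and serum cannot be told apart.

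A miRNA is a short RNA that is cut from a hairpin precursor, loaded into an Argonaute protein and guided to messenger RNAs mainly by its seed, bases 2 to 8 from the 5′ end. miR-122-5p is made almost entirely by hepatocytes, where it acts in cholesterol and lipid metabolism, and its level in serum is widely used as a sign of liver injury. miR-192-5p and miR-194-5p are abundant in liver, intestine and kidney, and miR-215-5p, a close relative of miR-192-5p, in intestine and kidney. In serum these RNAs lie outside cells, bound to protein or enclosed in vesicles, and the array does not tell which cells released them.

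The mature sequences below are those of the members detected on at least 1 array and of miR-194-5p, which shares its precursor transcripts with miR-192-5p and miR-215-5p. The seed is in capitals.
miR-192-5p: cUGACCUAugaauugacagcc
miR-215-5p: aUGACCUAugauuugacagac
miR-194-5p: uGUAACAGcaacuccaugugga
miR-22-3p: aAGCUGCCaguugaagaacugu
miR-148a-3p: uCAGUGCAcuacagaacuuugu
Sequences and positions are from RefSeq (GRCm38.p6), where 8 of the 10 members matched by name. miR-192-5p (chr19:6264857-6264877, plus strand) and miR-215-5p (chr1:185313610-185313630, plus strand) had the same seed and were identical at 18 of 21 positions. The substitutions from miR-192-5p to miR-215-5p, counted from the 5′ end, were C1A, A12U and C20A. Whether a probe for either one also bound the other was not tested. The same mature miR-194-5p comes from 2 loci. On chromosome 19 (chr19:6264658-6264679, plus strand) it lies 177 bases before miR-192-5p, and on chromosome 1 (chr1:185313325-185313346, plus strand) it lies 263 bases before miR-215-5p. miR-22-3p lies at chr11:75463772-75463793 on the plus strand and miR-148a-3p at chr6:51269829-51269850 on the minus strand. The 8 matched members had 7 distinct seeds, and the seed of miR-192-5p and miR-215-5p was the only one shared by 2 members.

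The arrays lay on 1 slide and were read in 1 scan. Each kit had 1 array, which allows no replicate check and no test of significance. Unless stated otherwise, an error given below comes from the spread between replicate spots of a probe within an array. No error includes variation between extractions. Each member had 2 probes of 15 spots. A probe was called detected where over 0.5 of its spots, outlier spots left out, were well above background, and a miRNA where at least 1 of its probes was. By this rule 83 miRNAs were detected on the exoRNeasy array, 71 on that of miRNeasy advanced and 134 on that of mirVana PARIS. Signal differed as well: taken over the 106 probes that every array detected, the 75th percentile was 7.05, 6.21 and 8.02 on the log2 scale, in the same order.

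Of the 10 members, 4 were detected on the exoRNeasy array, 4 on that of miRNeasy advanced and 5 on that of mirVana PARIS. Over all miRNAs the shares detected were 4.41%, 3.77% and 7.12%. miR-122-5p, miR-192-5p, miR-215-5p and miR-22-3p were detected on all 3 arrays, and miR-148a-3p on the mirVana PARIS array only. miR-122-3p, miR-194-5p, miR-193a-3p, miR-365-3p and miR-455-3p were detected on none. The scanner software's own flag called the same number of members on the exoRNeasy and miRNeasy advanced arrays, 4 each (7.12% and 5.16% of all miRNAs), but 8 on the mirVana PARIS array (8.56%), adding miR-193a-3p, miR-194-5p and miR-365-3p. Signals below are linear intensities after background subtraction, before any scaling, from the probe of each miRNA that was detected on most arrays and then brightest. Levels of different probes are not comparable as amounts, since each probe has its own brightness.

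**Figure D1:**
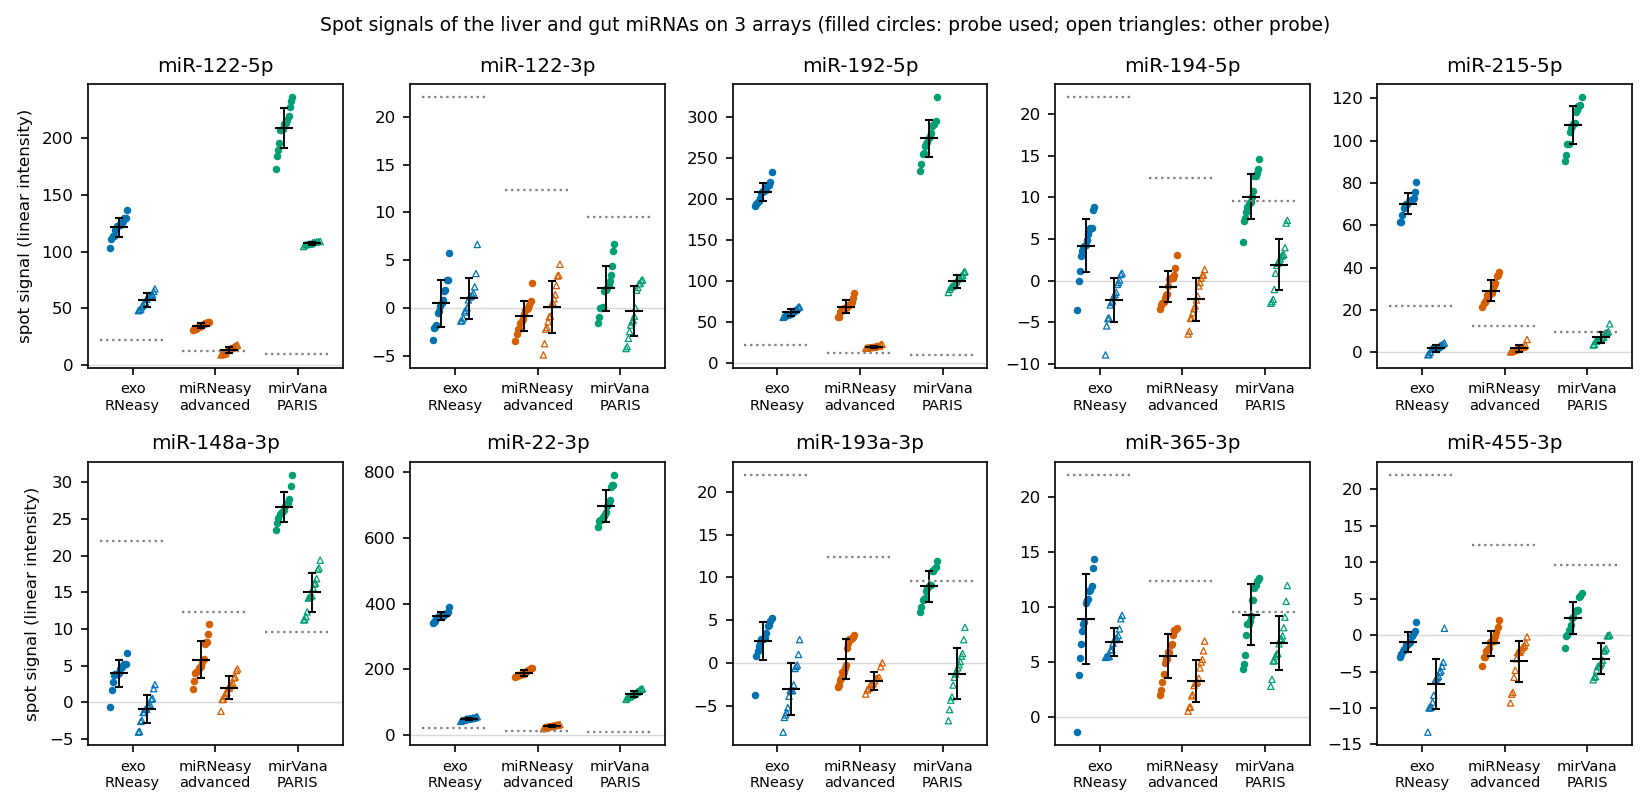
Spot signals of the 10 members, as linear intensity after background subtraction, on the exoRNeasy, miRNeasy advanced and mirVana PARIS arrays; each panel has its own vertical axis. Filled circles are spots of the probe used, open triangles those of the other probe, bars the mean and SD over spots, and dotted lines the lowest mean signal of any detected probe on that array. For miR-122-5p, miR-192-5p, miR-215-5p and miR-22-3p the spots of the probe used form 3 groups that do not overlap, with mirVana PARIS the brightest and miRNeasy advanced the dimmest.

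miR-122-5p, the hepatocyte miRNA, had a mean signal of 122 ± 8.34 on the exoRNeasy array, 34.7 ± 2.47 on that of miRNeasy advanced and 209 ± 17.6 on that of mirVana PARIS (SD, n = 15 spots each). The spots lay between 103 and 137 on the exoRNeasy array, between 31.1 and 38.1 on the miRNeasy advanced array and between 173 and 236 on the array of mirVana PARIS. No spot of one array reached the range of another. The other probe of miR-122-5p kept that order, with 57.0 ± 6.08 with exoRNeasy, 13.3 ± 3.02 with miRNeasy advanced and 107 ± 1.48 with mirVana PARIS (SD, n = 15, 15 and 10 spots). On the miRNeasy advanced array that probe was near the limit of detection, with 10 of its 15 spots well above background, and on the mirVana PARIS array 5 of its spots had been set aside as outliers. The opposite arm, miR-122-3p, averaged 0.50 ± 2.44, −0.84 ± 1.58 and 2.07 ± 2.38 (SD, n = 14, 14 and 15 spots) on the exoRNeasy, miRNeasy advanced and mirVana PARIS arrays, with no spot well above background.

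miR-192-5p averaged 209 ± 11.3 on the exoRNeasy array, 68.2 ± 7.88 on that of miRNeasy advanced and 274 ± 22.6 on that of mirVana PARIS (SD, n = 15 spots each). Its spots ranged from 192 to 233 with exoRNeasy, from 55.6 to 85.5 with miRNeasy advanced and from 235 to 324 with mirVana PARIS, so that the exoRNeasy and mirVana PARIS spots came close but did not overlap. Its other probe averaged 61.4 ± 4.08, 19.5 ± 1.46 and 99.5 ± 7.69 (SD, n = 15, 13 and 15 spots) on the exoRNeasy, miRNeasy advanced and mirVana PARIS arrays, in the same order. miR-215-5p, which shares the seed printed above, averaged 70.2 ± 5.01 with exoRNeasy, 29.1 ± 5.02 with miRNeasy advanced and 107 ± 9.12 with mirVana PARIS (SD, n = 14, 15 and 15 spots). Its spots ranged from 61.7 to 80.5 with exoRNeasy, from 21.4 to 37.7 with miRNeasy advanced and from 90.6 to 120.4 with mirVana PARIS, again apart. The other miR-215-5p probe was not detected on any array, with means of 2.03, 1.99 and 7.15 in the same order of arrays, so miR-215-5p rests on 1 probe.

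miR-194-5p, the third of the group, was below the detection rule everywhere. Its brighter probe averaged 4.21 ± 3.22 on the exoRNeasy array, −0.76 ± 1.86 on that of miRNeasy advanced and 10.1 ± 2.72 on that of mirVana PARIS (SD, n = 15 spots each). No spot was well above background on the exoRNeasy and miRNeasy advanced arrays, and 6 of 15 were on the mirVana PARIS array. There its mean lay just over 9.56, the lowest mean signal of any detected probe. The negative controls averaged 5.26 ± 3.53, 4.88 ± 2.65 and 4.90 ± 2.53 (SD over spots) on the exoRNeasy, miRNeasy advanced and mirVana PARIS arrays. Although miR-194-5p shares its precursor transcripts with miR-192-5p and miR-215-5p, no ratio was computed for it under the detection rule. Its mirVana PARIS spots, from 4.66 to 14.6, lay above its miRNeasy advanced spots, from −3.43 to 3.09, and overlapped its exoRNeasy spots, from −3.53 to 8.88.

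miR-22-3p, a broadly expressed miRNA that is abundant in liver and heart, passed the detection rule with both of its probes on all 3 arrays. It averaged 362 ± 12.6 with exoRNeasy, 189 ± 9.06 with miRNeasy advanced and 697 ± 49.0 with mirVana PARIS (SD, n = 14, 14 and 15 spots). Spots ranged from 342 to 389 with exoRNeasy, from 179 to 206 with miRNeasy advanced and from 632 to 792 with mirVana PARIS, with no overlap. Its other probe averaged 49.8 ± 4.02, 27.6 ± 3.53 and 126 ± 10.2 (SD, n = 15 spots each) for exoRNeasy, miRNeasy advanced and mirVana PARIS, in the same order.

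miR-148a-3p, a liver-abundant miRNA known to act on the LDL receptor mRNA, was measured on the mirVana PARIS array only. It averaged 3.94 ± 1.80 with exoRNeasy, 5.83 ± 2.51 with miRNeasy advanced and 26.6 ± 2.01 with mirVana PARIS (SD, n = 14, 15 and 13 spots). No spot was well above background on the exoRNeasy and miRNeasy advanced arrays, and all 13 were on the mirVana PARIS array, where the other probe also passed, at 15.0 ± 2.6 (SD, n = 15 spots). Since the dim side is only a bound, the unscaled signal on the mirVana PARIS array was at least 1.23-fold higher than that with exoRNeasy and at least 2.18-fold higher than that with miRNeasy advanced. A bound takes the higher of the dim probe's own signal and the lowest signal of a detected probe on that array. After scaling neither bound exceeded 1, so no difference in miR-148a-3p relative to the other miRNAs was measurable. Its seed relatives miR-148b-3p and miR-152-3p were not detected on any array, with 2 spots each over background with mirVana PARIS, and neither was miR-193b-3p, the relative of miR-193a-3p.

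miR-193a-3p, miR-365-3p and miR-455-3p did not pass the detection rule on any array. miR-193a-3p averaged 2.63 ± 2.22, 0.47 ± 2.29 and 9.0 ± 1.82 (SD, n = 14, 15 and 15 spots) on the exoRNeasy, miRNeasy advanced and mirVana PARIS arrays, with 5 of 15 mirVana PARIS spots well above background and none on the other arrays. miR-365-3p, whose chromosome 11 copy lies 14436 bases after miR-193a-3p, averaged 8.95 ± 4.07, 5.58 ± 1.99 and 9.32 ± 2.79 (SD, n = 15 spots each), with 7 of 15 spots on the mirVana PARIS array and none on the others. The exoRNeasy and mirVana PARIS spots of miR-365-3p covered much the same range, −1.34 to 14.4 on the exoRNeasy array and 4.43 to 12.7 on the mirVana PARIS array. Both means lay below the lowest mean signal of any detected probe, 22 and 9.56. The overlap therefore cannot be set against the detected members. miR-455-3p, encoded within the collagen gene Col27a1, averaged −0.99 ± 1.37, −1.13 ± 1.72 and 2.4 ± 2.19 (SD, n = 12, 14 and 15 spots) on the exoRNeasy, miRNeasy advanced and mirVana PARIS arrays, with no spot above background. Of the 10 opposite arms of the members other than miR-122, which include miR-192-3p, miR-215-3p and miR-22-5p, 0 were detected on any array.

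The order of unscaled signal was thus the same for all 4 members detected throughout, with mirVana PARIS highest and miRNeasy advanced lowest. The spots of the members did not overlap in 4 of 4 cases in each comparison, where the spots of 81.2% of all miRNAs did not overlap for exoRNeasy against mirVana PARIS, 88.1% for exoRNeasy against miRNeasy advanced and 91.5% for miRNeasy advanced against mirVana PARIS. Separation of the spots therefore did not set the members apart. To compare a miRNA with the rest of its array, each array was scaled to the 75th percentile named above, and the log2 ratio of 2 arrays was set beside the median over all miRNAs detected on both. Before scaling these medians were −0.64 for exoRNeasy over mirVana PARIS, 0.96 for exoRNeasy over miRNeasy advanced and −1.62 for miRNeasy advanced over mirVana PARIS. After scaling they were 0.33 over 80 miRNAs, 0.12 over 67 and 0.18 over 71. The distance of a miRNA from the median is the same before and after scaling, whereas the sign of the ratio itself is not.

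Between the exoRNeasy and mirVana PARIS arrays the members moved little relative to other miRNAs. The scaled log2 ratio, exoRNeasy over mirVana PARIS, was 0.19 ± 0.04 in miR-122-5p, 0.58 ± 0.04 in miR-192-5p, 0.36 ± 0.04 in miR-215-5p and 0.03 ± 0.03 in miR-22-3p (± standard error between spots). The difference from the median of all 80 miRNAs was −0.14 in miR-122-5p, 0.25 in miR-192-5p, 0.03 in miR-215-5p and −0.30 in miR-22-3p. Counted from the lowest ratio they ranked 31st, 53rd, 42nd and 24th of 80, all within the middle of a range that ran from −1.60 to 2.81. A ratio was called past 2-fold where it was at least 1 on the log2 scale in size and over 3 standard errors. Of the 4 members 0 were past 2-fold higher, against 25% of all miRNAs compared, and 0 were lower, against 2.5%. The members' median was 0.27. Without scaling the ratios were −0.78, −0.39, −0.61 and −0.94 in the same order of members, again with 0 of 4 past 2-fold (6.25% of all miRNAs were higher and 27.5% lower). The sign of the ratio therefore depended on the scaling for all 4 members, and that of miR-22-3p was within 1 standard error of 0 after scaling.

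Between the exoRNeasy and miRNeasy advanced arrays the members spread out, with miR-122-5p at the upper end under the reported processing. The scaled log2 ratio, exoRNeasy over miRNeasy advanced, was 0.97 ± 0.04 for miR-122-5p, a 1.96-fold higher scaled signal on the exoRNeasy array. miR-192-5p had 0.79 ± 0.05, miR-215-5p had 0.45 ± 0.07 and miR-22-3p had 0.10 ± 0.02. miR-122-5p ranked 65th of 67 from the lowest, miR-192-5p 59th, miR-215-5p 53rd and miR-22-3p 29th. They differed from the median by 0.85, 0.66, 0.33 and −0.02 in the same order. With normexp the ranks were 64th, 67th, 42nd and 56th, and with no background correction 65th, 66th, 41st and 50th. In both settings miR-192-5p ranked above miR-122-5p, and miR-22-3p above miR-215-5p. The ratios of all miRNAs ran from −1.14 to 1.43, and the members' median was 0.62. miR-122-5p lay just under the 2-fold limit, so 0 of 4 members were called, against 2.99% of all miRNAs called higher and 1.49% called lower. With its other probe, which was near the detection limit on the miRNeasy advanced array, the ratio was 1.30 ± 0.10 and past the limit. Without scaling 3 of 4 members were past 2-fold higher, with miR-122-5p at 1.81, miR-192-5p at 1.62 and miR-215-5p at 1.29, while miR-22-3p was at 0.94, against 43.3% of all miRNAs.

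On the miRNeasy advanced array against that of mirVana PARIS, under the reported processing, miR-122-5p stood at the low end and the other members nearer the middle. Its scaled log2 ratio, miRNeasy advanced over mirVana PARIS, was −0.78 ± 0.04, a 1.72-fold lower signal on the miRNeasy advanced array, and it ranked 3rd from the lowest of 71, or 12th with normexp or no background correction. miR-192-5p was at −0.21 ± 0.05, miR-215-5p at −0.10 ± 0.07 and miR-22-3p at −0.07 ± 0.03, ranking 22nd, 24th and 25th. With normexp these 3 ranked 18th, 34th and 10th, and with no background correction 19th, 34th and 11th. In both settings miR-22-3p ranked lower than miR-122-5p. The reported ratios of miR-215-5p and miR-22-3p were within 3 standard errors of 0. All 4 members lay below the median of all miRNAs, with differences from it of −0.96 in miR-122-5p, −0.39 in miR-192-5p, −0.28 in miR-215-5p and −0.25 in miR-22-3p, in a range of ratios from −1.34 to 2.02. Of the 4 members 0 were past 2-fold after scaling, against 14.1% of all miRNAs higher and 2.82% lower. The other probe of miR-122-5p was past the limit, at −1.25 ± 0.09. Without scaling all 4 were past 2-fold lower, from −2.59 for miR-122-5p to −1.88 for miR-22-3p, as were 80.3% of all miRNAs. The miRNAs with a lower scaled ratio than miR-122-5p were miR-133a-3p at −1.33 ± 0.05 and miR-133b-3p at −1.34 ± 0.04, closely related miRNAs of skeletal and heart muscle, and these were the 2 called lower.

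**Figure D2:**
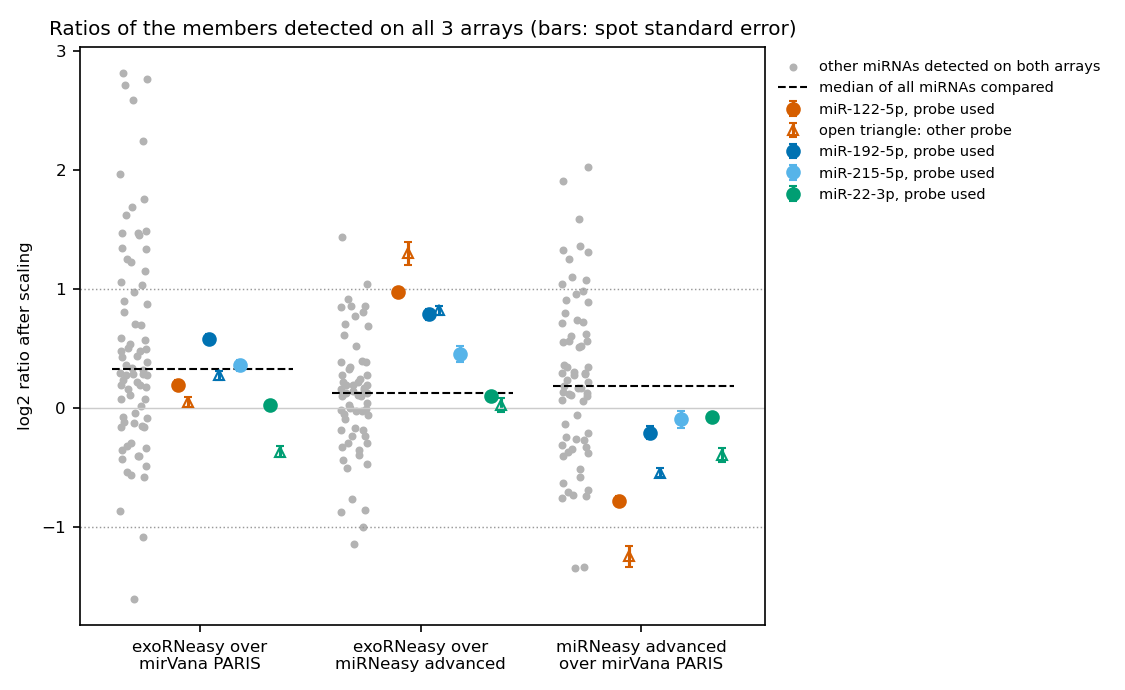
Scaled log2 ratios of the 4 members detected on all 3 arrays, in each comparison, with the standard error between spots. Grey points are all other miRNAs detected on both arrays, dashed lines the median over all miRNAs and dotted lines the 2-fold limits. miR-122-5p lies near the top for exoRNeasy over miRNeasy advanced (0.97) and near the bottom for miRNeasy advanced over mirVana PARIS (−0.78), and close to the median for exoRNeasy over mirVana PARIS (0.19).

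The second probes of the members gave the same direction for miR-192-5p in all 3 comparisons, with scaled log2 ratios of 0.28 ± 0.04 for exoRNeasy over mirVana PARIS, 0.82 ± 0.04 for exoRNeasy over miRNeasy advanced and −0.54 ± 0.04 for miRNeasy advanced over mirVana PARIS. The last differed by −0.34 from the value with the probe used. For miR-122-5p the second probe gave 0.05 ± 0.04 for exoRNeasy over mirVana PARIS, where the probe used gave 0.19. For miR-22-3p the second probe gave −0.37 ± 0.04, 0.03 ± 0.06 and −0.39 ± 0.06 in the same 3 comparisons, so that its exoRNeasy over mirVana PARIS ratio had another sign than with the probe used. Probes of the same miRNA thus differed by up to 0.46 on the log2 scale, several times the standard error between spots.

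Within an array, the signal of miR-122-5p can be expressed as a percentage of another member's signal. The percentage itself carries the brightness of both probes, and no scaling enters it. A constant brightness factor cancels in its change from array to array, but an error in the zero of an array does not. Against miR-192-5p it was 58.2 ± 1.31% on the exoRNeasy array, 50.9 ± 1.78% on that of miRNeasy advanced and 76.2 ± 2.32% on that of mirVana PARIS (± error between spots). Against miR-215-5p it was 173 ± 4.51%, 119 ± 5.76% and 195 ± 6.01% in that order of arrays. Against miR-22-3p it was 33.6 ± 0.67%, 18.3 ± 0.41% and 30.0 ± 0.85% in the same order. The size of the change depended on the probe. With the other probe of miR-122-5p the percentage of the same miR-192-5p probe was 27.3%, 19.5% and 39.1%. The miRNeasy advanced array had the lowest percentage for each of the 3 partners, and for 10 of 10 combinations of detected probes. This depended on the background correction. With normexp and with no background correction the percentage was lowest on the exoRNeasy array against miR-192-5p and on the mirVana PARIS array against miR-22-3p, and on the miRNeasy advanced array only against miR-215-5p. The highest was on the mirVana PARIS array for the 6 combinations with miR-192-5p or miR-215-5p, and on the exoRNeasy array for the 4 with miR-22-3p.

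**Figure D3:**
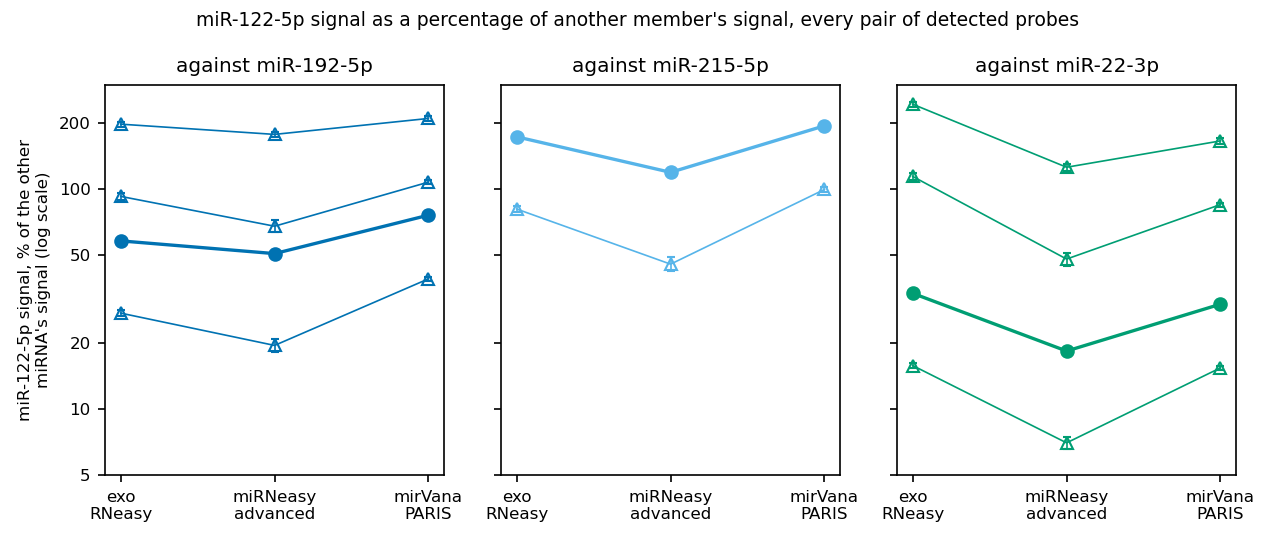
Signal of miR-122-5p as a percentage of the signal of miR-192-5p, miR-215-5p or miR-22-3p on each array (log scale), for every combination of detected probes, with the error between spots. Filled circles and thick lines are the probes used, open triangles the other combinations. Every line has its lowest point on the miRNeasy advanced array.

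The same percentage was taken against all 66 other miRNAs detected on all 3 arrays. That of miR-122-5p was lowest on the miRNeasy advanced array for 62 of them, on the exoRNeasy array for 2 and on the mirVana PARIS array for 2. For miR-192-5p the miRNeasy advanced array was lowest for 40 of 66, for miR-215-5p for 35 and for miR-22-3p for 22. The highest percentage of miR-122-5p was on the exoRNeasy array for 30 and on the mirVana PARIS array for 36, and that of miR-192-5p was on the exoRNeasy array for 47. With normexp the miRNeasy advanced array was lowest for 52 of the 66 partners of miR-122-5p, and with no background correction for 53. Under the same settings it was lowest for 49 and 47 with miR-192-5p, 25 and 24 with miR-215-5p, and 48 and 42 with miR-22-3p. The distance of miR-122-5p from miR-192-5p and miR-22-3p was thus much smaller under these settings. The 66 comparisons of a miRNA share its own spots and are not independent.

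How miR-122-5p changed relative to the miR-192, miR-194 and miR-215 group was measured as its log2 ratio minus the mean log2 ratio of the group, a quantity that scaling with 1 factor per array leaves unchanged. Only miR-192-5p and miR-215-5p entered the mean, as miR-194-5p was not detected. For exoRNeasy over mirVana PARIS miR-122-5p was at 0.19 and the group at 0.47, a difference of −0.28 ± 0.05, or 1.21-fold lower on the exoRNeasy array. For exoRNeasy over miRNeasy advanced miR-122-5p was at 0.97 and the group at 0.62, a difference of 0.35 ± 0.06, or 1.28-fold higher on the exoRNeasy array. For miRNeasy advanced over mirVana PARIS miR-122-5p was at −0.78 and the group at −0.15, a difference of −0.63 ± 0.06, or 1.55-fold lower on the miRNeasy advanced array. With the probes used, all 3 differences exceeded 3 spot standard errors and none reached 2-fold. The signs of these differences from the group mean held under 12 other settings, with ranges of −0.42 to −0.17 for exoRNeasy over mirVana PARIS, 0.10 to 0.68 for exoRNeasy over miRNeasy advanced and −1.10 to −0.34 for miRNeasy advanced over mirVana PARIS. The smallest differences that involve the miRNeasy advanced array came from signals without background subtraction or with normexp correction, and the largest from the other probe of miR-122-5p. No setting took the other probe of miR-192-5p by itself, so the ranges leave it out. For exoRNeasy over mirVana PARIS that probe gave 0.28, nearer to the 0.19 of miR-122-5p than the 0.58 of the probe used.

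**Figure D4:**
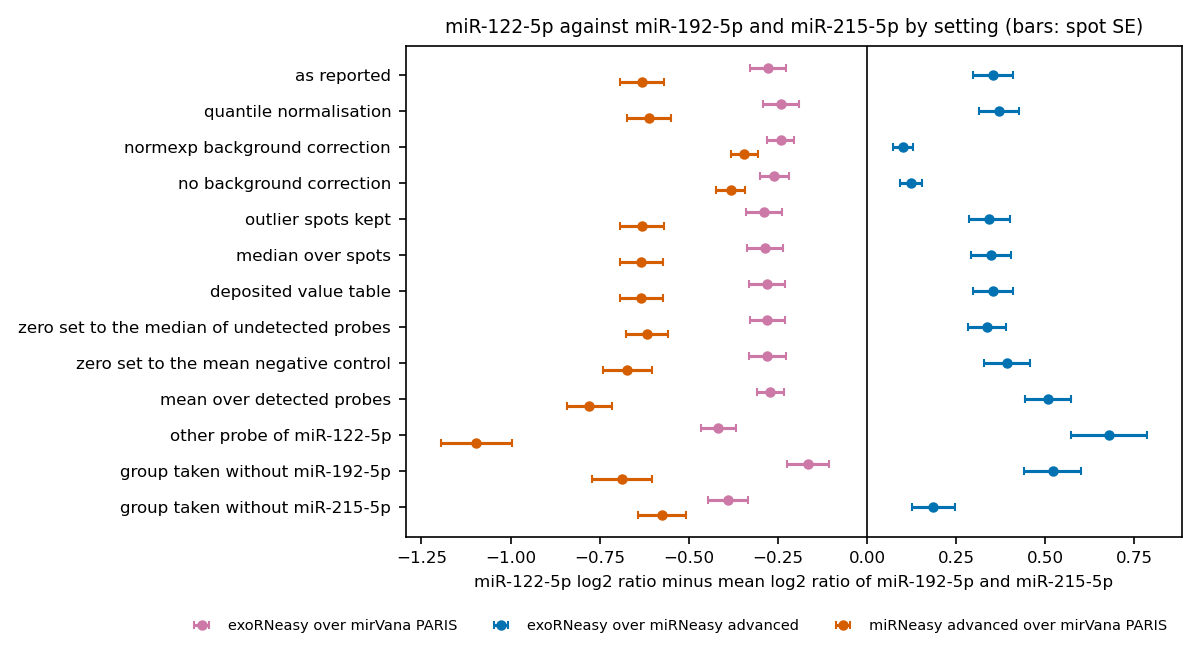
Log2 ratio of miR-122-5p minus the mean log2 ratio of miR-192-5p and miR-215-5p, under the reported processing (top) and 12 other settings, with the standard error between spots. The values for exoRNeasy over miRNeasy advanced all lie above 0, and those for exoRNeasy over mirVana PARIS and miRNeasy advanced over mirVana PARIS all lie below 0.

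Taken member by member, miR-122-5p differed from miR-192-5p by −0.39 ± 0.06 and from miR-215-5p by −0.17 ± 0.06 for exoRNeasy over mirVana PARIS, the second within 3 standard errors. For exoRNeasy over miRNeasy advanced it differed from miR-192-5p by 0.19 ± 0.06, from miR-215-5p by 0.52 ± 0.08 and from miR-22-3p by 0.87 ± 0.04. The difference from miR-192-5p changed sign with normexp (−0.14) and with no background correction (−0.098). For miRNeasy advanced over mirVana PARIS it differed from miR-192-5p by −0.58 ± 0.07, from miR-215-5p by −0.69 ± 0.08 and from miR-22-3p by −0.71 ± 0.05. The difference from miR-22-3p changed sign with normexp (0.11) and with no background correction (0.015). In that comparison miR-192-5p, miR-215-5p and miR-22-3p did not differ from each other by over 3 standard errors under the reported processing. miR-192-5p and miR-215-5p, which have the same seed, differed by 0.22 ± 0.06 for exoRNeasy over mirVana PARIS, by 0.34 ± 0.08 for exoRNeasy over miRNeasy advanced and by −0.11 ± 0.09 for miRNeasy advanced over mirVana PARIS (miR-192-5p minus miR-215-5p). With normexp and with no background correction the last difference was −0.45 and −0.43, larger than that between miR-122-5p and miR-192-5p, at −0.12 and −0.17.

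Among the 66 other miRNAs detected on all 3 arrays, those whose scaled pattern lay nearest to miR-122-5p outside the members were miR-30a-5p, miR-30e-5p and miR-25-3p. The measure was the Euclidean distance between the 3 scaled levels, centred on their mean, and came to 0.31 for miR-30a-5p, 0.33 for miR-30e-5p and 0.46 for miR-25-3p. Over 3 arrays this describes the pattern only. Of the members, miR-192-5p was at 0.42 (3rd nearest), miR-215-5p at 0.51 (6th) and miR-22-3p at 0.66 (19th). miR-30a-5p had log2 ratios of 0.36 for exoRNeasy over mirVana PARIS, 0.70 for exoRNeasy over miRNeasy advanced and −0.35 for miRNeasy advanced over mirVana PARIS, and miR-30e-5p had −0.12, 0.52 and −0.63. miR-30a-5p and miR-30e-5p are closely related in sequence, and whether their probes tell them apart was not tested.

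A list of 13 other miRNAs known to be abundant in liver had 5 detected on the exoRNeasy array, 4 on that of miRNeasy advanced and 10 on that of mirVana PARIS. The shares over all miRNAs were 4.41%, 3.77% and 7.12%. The 4 on all 3 arrays were miR-21a-5p, miR-29a-3p, which acts on collagen mRNAs, miR-30a-5p and miR-107-3p, encoded in an intron of a pantothenate kinase gene. miR-21a-5p had scaled log2 ratios of 0.38 ± 0.03 for exoRNeasy over mirVana PARIS, −0.24 ± 0.03 for exoRNeasy over miRNeasy advanced and 0.62 ± 0.04 for miRNeasy advanced over mirVana PARIS, where miR-122-5p had 0.19, 0.97 and −0.78. miR-29a-3p had 0.17 ± 0.03, 0.12 ± 0.03 and 0.06 ± 0.03. miR-107-3p had −0.04 ± 0.05, 0.27 ± 0.08 and −0.31 ± 0.08. The medians of the list were 0.36 over 5, 0.20 over 4 and −0.13 over 4, beside 0.33, 0.12 and 0.18 over all miRNAs. The only one past 2-fold was miR-26a-5p, named after its value was seen, at 1.45 ± 0.08 for exoRNeasy over mirVana PARIS. In that comparison 25% of all miRNAs were past 2-fold higher, so this call did not set the list apart. miR-27b-3p, miR-99a-5p, miR-101a-3p, miR-103-3p and miR-378a-3p were detected on the mirVana PARIS array only, as miR-148a-3p was, and miR-33-5p, miR-101b-3p and miR-802-5p on none.

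Of 7 miRNAs listed for gut epithelium 3 were detected on the exoRNeasy array, 0 on that of miRNeasy advanced and 3 on that of mirVana PARIS. Summed signals were 129 for exoRNeasy and 63.9 for mirVana PARIS. Over all miRNAs 4.41%, 3.77% and 7.12% were detected, in the same order of arrays. Both miR-200a-3p and its relative miR-200b-3p, the epithelial miRNAs that act on Zeb1 and Zeb2 mRNA, were detected on the exoRNeasy and mirVana PARIS arrays, with scaled log2 ratios of 2.58 ± 0.08 and 2.24 ± 0.05, exoRNeasy over mirVana PARIS, and were named after their values were seen. miR-429-3p was detected on the exoRNeasy array only and miR-375-3p on the mirVana PARIS array only, while miR-141-3p, miR-200c-3p and miR-31-5p were detected on none. Over the same comparison miR-192-5p and miR-215-5p were at 0.58 and 0.36. Of 2 smooth muscle markers, miR-143-3p and miR-145a-5p, 0 were detected on any array. The arrays do not tell whether the signal of miR-192-5p and miR-215-5p came from liver, gut or kidney. Nor do they tell whether the signal of the listed epithelial miRNAs came from gut or from another epithelium.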

How the data were processed

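Cy3 intensity of each spot was read by the authors from 1-colour Agilent mouse miRNA arrays with Agilent Feature Extraction 11.5, per the submitters' processing notes, and is deposited on a linear scale after background subtraction, with no scaling between arrays recorded, per the file headers. A value table, also deposited, holds the same linear intensities, within 0.50% of the scanner values for all 58594 spots, not centred (column medians −2.77, −1.51 and −1.44 in the order exoRNeasy, miRNeasy advanced, mirVana PARIS). Slide and scan were shared by the 3 arrays, so they do not separate the kits.

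Control spots and spots flagged as outliers (1515, 1474 and 1427) were left out, and 0 spots were saturated. Signals were raised to at least 1 and averaged as log2 over the spots of each of 4415 probes. Each array was then scaled to its 75th percentile over 106 probes that every array detected. A miRNA took the probe detected on most arrays, then the brightest. The error of a log2 ratio combines the spot standard errors of its 2 arrays. The number of arrays, 1 per kit, limits the precision, and no test was possible. Python 3.11.15, pandas 2.3.3 and R 4.3.3 with limma 3.58.1 (normexp only) were used. The probe averages and the 2-fold call were tried on simulated data, and the other steps were not. The files held no mean pixel signal, so normexp (offset 50) took the median signal.

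All 10 members are named. Of the lists of other liver-abundant miRNAs, seed relatives, opposite arms, gut epithelium, smooth muscle, red cell, platelet and white cell, and muscle, up to 4 detected on all 3 arrays with the largest ratios are named, as are the 3 patterns nearest to miR-122-5p. The members and lists were chosen with earlier results of these data known. Alternatives covered scaling, background correction, outlier spots, probe choice, detection rule and the members of the comparison group.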

Additional observations from a re-analysis of the deposited data

How the results depend on the processing

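No paired analysis was possible because each kit has 1 array and the labels carry no replicate numbers. Of 132 values for the main results under other settings, 112 stayed within the limits set and 20 did not. These values include counts of members, which cannot change sign, and the differences from the group, which kept theirs. They also include the deposited value table, which holds the same intensities and could change little. The number that stayed is therefore not a measure of how stable the results are. Of 159 values for the ratios of single members, 88 stayed within the limits and 60 moved. The other 11 changed sign from a reported value over 3 standard errors from 0. For exoRNeasy over mirVana PARIS, 3 members were past 2-fold lower with the 75th percentile over all probes. For exoRNeasy over miRNeasy advanced, the members past 2-fold higher were 3 without scaling, 2 with the 75th percentile of every probe, 4 with the labelling spike-ins, and 1 with the median over spots, the mean over detected probes, the other probe of miR-122-5p or the zero set to the mean negative control. For miRNeasy advanced over mirVana PARIS, 4 were past 2-fold lower without scaling, on the labelling spike-ins or the all-probe percentile, and 1 with the mean over detected probes or the other probe of miR-122-5p. A change of scaling moves every miRNA of an array together. Without scaling, 43.3% of all miRNAs were past 2-fold higher for exoRNeasy over miRNeasy advanced. For miRNeasy advanced over mirVana PARIS, 80.3% were lower. No such share is given for the other settings, so these counts do not set the members apart. The scanner software's flag gave 8 members on the mirVana PARIS array. Where every probe of a miRNA had to be detected, 3 members passed on the exoRNeasy array, 3 on that of miRNeasy advanced and 4 on that of mirVana PARIS. These counts were taken as within the limits.

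The miR-122-5p difference from the group was 0.10 with normexp, 0.12 without background correction and 0.68 with the other probe for exoRNeasy over miRNeasy advanced, and −0.34, −0.38 and −1.10 for miRNeasy advanced over mirVana PARIS. Why both background settings gave smaller values here was not tested, and some differences between single members were larger with them. The exoRNeasy over mirVana PARIS ratio changed sign without scaling (miR-122-5p −0.78, miR-192-5p −0.39, miR-215-5p −0.61), scaled on the all-probe percentile (−1.24, −0.85, −1.08) and scaled on the labelling spike-ins (−0.53, −0.14, −0.36), and for miR-122-5p also with the median over shared probes (−0.058), where miR-22-3p changed to −0.18 for exoRNeasy over miRNeasy advanced. Values within 3 standard errors of 0 also changed sign. miR-215-5p had 0.34 with normexp and 0.31 with no background correction for miRNeasy advanced over mirVana PARIS, and for exoRNeasy over mirVana PARIS miR-22-3p lay between −1.41 and −0.11 without scaling, with each of the other scalings, with both background settings, with quantile normalisation and with the mean over detected probes. The labelling spike-ins themselves differed by −0.25 ± 0.18, −0.12 ± 0.08 and −0.13 ± 0.12 (unscaled log2 ratio, SD over 4 probes) for exoRNeasy over mirVana PARIS, exoRNeasy over miRNeasy advanced and miRNeasy advanced over mirVana PARIS. Alternatives using the other probe of miR-122-5p and another zero were chosen after seeing the data. Members that did not pass the detection rule on both arrays of a comparison were given no ratio. The lowest mean signal of a detected probe was 22, 12.4 and 9.56 on the exoRNeasy, miRNeasy advanced and mirVana PARIS arrays.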

Other observations

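Markers of blood cells and muscle were read beside the liver and gut miRNAs, and their part in the results above was not tested. Over all miRNAs 4.41% were detected on the exoRNeasy array, 3.77% on that of miRNeasy advanced and 7.12% on that of mirVana PARIS. Of 8 red cell miRNAs 7 were on the array, and 6 were detected on the exoRNeasy array, 6 on that of miRNeasy advanced and 7 on that of mirVana PARIS, with summed signals of 7058, 5377 and 20206. miR-451a, the main miRNA of red cells, made up most of these sums, at 6245, 4965 and 18052. The median scaled log2 ratios of the list were −0.45 for exoRNeasy over mirVana PARIS, 0.19 for exoRNeasy over miRNeasy advanced and −0.45 for miRNeasy advanced over mirVana PARIS. Of these, miR-144-3p was the only one past 2-fold, at −1.60 ± 0.04 for exoRNeasy over mirVana PARIS, the lowest ratio of any miRNA in that comparison. There 2.5% of all miRNAs were past 2-fold lower. The other ratios in that comparison were −0.56 for miR-451a, −0.58 for miR-16-5p, −0.34 for miR-486a-5p, 0.50 for miR-92a-3p and 0.01 for miR-25-3p.

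Of 7 platelet and white cell miRNAs 4, 4 and 6 were detected on the exoRNeasy, miRNeasy advanced and mirVana PARIS arrays, with summed signals of 899, 473 and 1277 and medians of 0.32, −0.04 and 0.52 in the 3 comparisons. miR-142a-3p had −0.40 ± 0.06, −1.14 ± 0.06 and 0.74 ± 0.04, where miR-122-5p had 0.19, 0.97 and −0.78, and miR-126a-3p, miR-223-3p and miR-146a-5p had 0.89, 0.29 and 0.13 for miRNeasy advanced over mirVana PARIS. Of 4 skeletal and heart muscle miRNAs 3 were detected on each array, with summed signals of 311, 137 and 840 and medians of −0.49, 0.80 and −1.33. miR-133a-3p and miR-133b-3p had 0.84 ± 0.06 and 0.80 ± 0.04 for exoRNeasy over miRNeasy advanced, where miR-122-5p had 0.97 and miR-1a-3p had −0.0014 ± 0.04.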
